A study of Homo sapiens with 4 samples.

Results

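The genes described here encode 8 factors that activated B cells release: the chemokines CCL3, CCL4, CCL17, CCL22 and CXCL10, the cytokine IL10, the cytokine subunit EBI3 and the secreted amino acid oxidase IL4I1. They were taken by symbol from a table of 25277 gene symbols, and all 8 were listed there. The genes were chosen by their FPKM values in hairpin and control libraries, with the response of CCL3 and CCL4 to a BTK hairpin already known, so every difference between hairpin and control is given as a description, with no test. RNA sequencing covered 4 cultures of the human lines Mino and Z138, both established from mantle cell lymphoma, a cancer of mature B cells. The groups were Mino with a doxycycline-inducible small hairpin against BTK, Mino with the control vector named sc4, Z138 with the same hairpin and Z138 with sc4. All 4 cultures had received doxycycline for 48 hours, and each group had 1 library. The labels name stable lines made with a tet-on vector and do not say whether a line was a clone or what sc4 expresses, and there was 1 hairpin per line.

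BTK is a kinase that carries the signal of the B cell receptor to calcium, NFAT and NF-kB. Receptor stimulation of B cells switches on CCL3 and CCL4, which attract T cells and monocytes; CCR1 is one receptor of CCL3. CCL17 and CCL22 attract T cells through CCR4, and CXCL10 attracts them through CXCR3. EBI3 pairs with IL27 or IL12A to form secreted cytokines, IL10 restrains immune responses, and IL4I1 breaks down phenylalanine and other aromatic amino acids outside the cell.

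CCL3 and CCL4 lie close together on chromosome 17 beside near-identical copies, which bears on how their reads can be counted. The first 60 coding bases of CCL3 and of its copy CCL3L1, from GENCODE release 29 transcripts, are shown 5′ to 3′ with the base that differs in capitals.
CCL3: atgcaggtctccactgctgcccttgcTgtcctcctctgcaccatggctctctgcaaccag
CCL3L1: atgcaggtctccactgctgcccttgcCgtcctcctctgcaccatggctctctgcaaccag
Over the whole coding sequence CCL3 and CCL3L1 were identical at 270 of 282 aligned bases (95.7%), and CCL4 and the most similar CCL4L2 transcript at 272 of 279 (97.5%). CCL3 and CCL4 themselves shared 66.3% of aligned coding bases. Of the 729 windows of 50 bases along the CCL3 transcript, 9.88% also occurred in a CCL3L1 transcript. Of the 855 windows along the CCL4 transcript, 21.3% occurred in a CCL4L2 transcript, and none of the CCL3 windows occurred in a CCL4 transcript. CCL3L1, CCL3L3 and CCL4L1 were listed at 0 FPKM in all 4 libraries. CCL4L2 was at 0.571 FPKM in the Mino hairpin and 0.275 FPKM in the Mino control library and was listed at 0 in both Z138 libraries. How reads that match a gene and its copy were assigned is not stated in the labels, so the values of CCL3 and CCL4 may include reads of the copies.

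The 250 bases before the most upstream RefSeq start were available for 6 of the 8 genes (GRCh38.p14); CCL4 and CCL17 had no entry. Those of CCL3, CCL22 and EBI3, which were lower in the Mino hairpin library, are shown 5′ to 3′ on the gene's strand, with motif matches in capitals. The CCL3 window is chr17:36090144-36090393 on the minus strand, that of CCL22 is chr16:57358533-57358782 on the plus strand, and that of EBI3 is chr19:4229273-4229522 on the plus strand.
CCL3: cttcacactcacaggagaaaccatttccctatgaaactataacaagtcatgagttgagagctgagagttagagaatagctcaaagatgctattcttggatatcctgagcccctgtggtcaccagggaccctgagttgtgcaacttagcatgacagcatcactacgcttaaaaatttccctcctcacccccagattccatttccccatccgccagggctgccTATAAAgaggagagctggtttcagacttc
CCL22: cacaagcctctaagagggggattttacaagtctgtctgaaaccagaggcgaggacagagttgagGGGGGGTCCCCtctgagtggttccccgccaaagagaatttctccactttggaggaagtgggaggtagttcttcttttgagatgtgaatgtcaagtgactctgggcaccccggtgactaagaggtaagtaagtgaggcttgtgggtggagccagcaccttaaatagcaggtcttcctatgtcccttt
EBI3: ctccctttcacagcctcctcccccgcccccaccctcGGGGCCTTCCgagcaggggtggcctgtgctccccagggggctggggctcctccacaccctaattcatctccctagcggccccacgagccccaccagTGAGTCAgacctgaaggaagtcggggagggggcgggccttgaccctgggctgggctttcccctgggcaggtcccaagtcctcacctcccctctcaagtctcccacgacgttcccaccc
Motifs were searched on both strands: the kappaB consensus bound by NF-kB, the AP-1 motif TGANTCA, the NFAT core GGAAAA and the TATA motif TATAAA. A kappaB match was found in 3 of the 6 windows, those of CCL22, CXCL10 and EBI3, and in 9.58% of the windows of 27305 genes. In CCL22 the capitals mark 2 overlapping kappaB matches that read as kappaB on both strands and begin at positions −186 and −185. In EBI3 they mark a kappaB match at position −214 and an AP-1 match at position −118; AP-1 matches occurred in 6.57% of all windows. In CCL3 they mark a TATA match at position −29, a motif present in 11.2% of all windows and, among the 6, also in that of IL10. The CXCL10 window held kappaB matches at positions −177 and −122 and an NFAT core at −48, a motif present in 21.4% of all windows. The IL4I1 window held no match to any of the 4. Only 1 start per gene was searched, and which start these cells use was not examined, so a missing match says nothing of other starts. A match describes letters in these windows and is not a measured binding site.

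Values are FPKM, in which fragments are divided by transcript length and by the size of the library. The number of reads is unknown; a library's values summed to between 669013 and 740192 FPKM, and 14953 to 16007 symbols were above 0. The Z138 control library listed the elongation factor gene EEF1A1 at 0, against 6404 to 6976 FPKM in the other 3 libraries. Differences within Z138 rest on that library, whereas those within Mino do not. The Z138 hairpin library had an extreme value too: CNBP differed by −7.14 in log2(FPKM + 1) between the Z138 hairpin and control libraries. Of the 11484 genes that averaged at least 1 FPKM, 334 were listed at 0 in 1 or more libraries. BTK, the target of the hairpin, was at 9.84 FPKM in the Mino hairpin and 37.0 in the Mino control library, and at 12.4 FPKM in the Z138 hairpin and 51.0 in the Z138 control library. All 6 B cell markers examined, CD79A and PAX5 among them, were above 1 FPKM in every library. CCND1, the cyclin that defines mantle cell lymphoma, was at 2.62 and 3.18 FPKM in the Mino hairpin and control libraries, against 600.5 and 591 in those of Z138. CD5, a further marker of the disease, was at 1.70 and 2.33 FPKM in the Mino hairpin and control libraries and at or below 0.0751 FPKM in both Z138 libraries. SOX11, another such marker, lay between 19.8 and 23.6 FPKM in all 4 libraries. Monocytes, macrophages and dendritic cells, NK cells and T cells also release CCL3 and CCL4. The 7 markers of the myeloid group summed to between 0.347 and 0.658 FPKM per library with none at 1 FPKM or more, and CD163 was listed at 0 in all 4. Of 5 T cell markers, 1 or 2 were at 1 FPKM or more, with sums of 1.72 FPKM in the Mino hairpin, 2.17 in the Mino control, 4.67 in the Z138 hairpin and 4.53 in the Z138 control library. The 4 NK cell markers summed to 4.68 and 3.71 FPKM in the Mino hairpin and control libraries, mostly KLRF1 and NKG7, and to 1.37 and 1.29 FPKM in those of Z138. The 4 fibroblast markers summed to 3.62 and 4.59 FPKM in the Mino hairpin and control libraries, nearly all of it COL1A1, and to 0.679 and 0.913 FPKM in those of Z138. The part of T, NK and fibroblast transcripts in the results was not tested.

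The 8 genes were not expressed evenly. IL4I1 had the highest level of the 8 in both Mino libraries and CCL3 in both Z138 libraries. Together they summed to 266 FPKM in the Mino hairpin library against 456 in the Mino control library, and to 28.0 FPKM in the Z138 hairpin library against 78.5 in the Z138 control library. IL4I1 made up 37.2% of that sum in the Mino hairpin and 41.6% in the Mino control library, and 19.3% in the Z138 hairpin and 9.78% in the Z138 control library. CCL3 made up 32.0% and 28.5% in the Mino hairpin and control libraries, and 67.9% and 77.0% in those of Z138. CCL17, CXCL10 and IL10 were below a mean of 1 FPKM over the 4 libraries, so 5 of the 8 genes entered the comparisons across all genes.

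**Figure D1:**
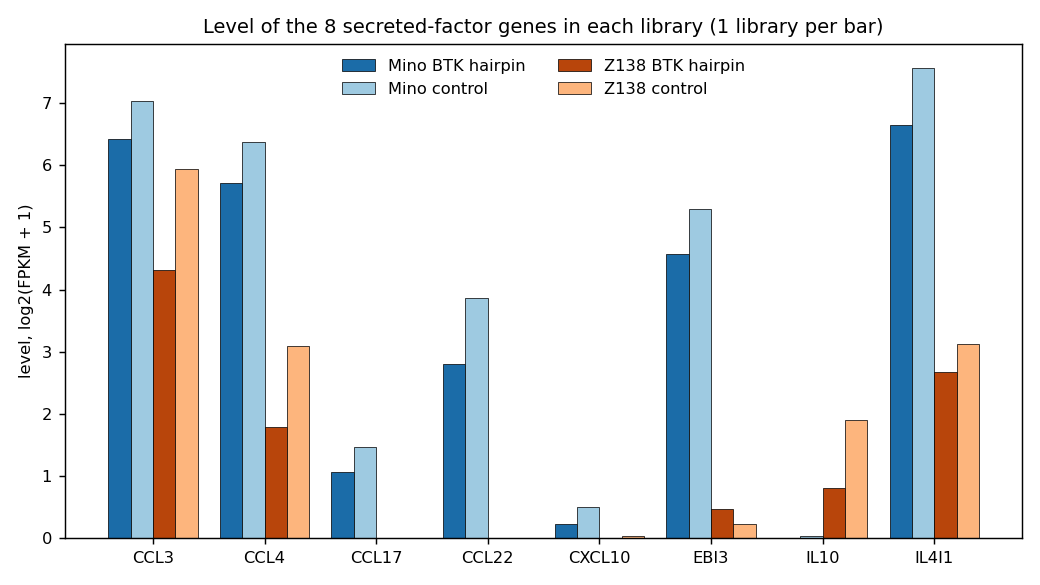
Level of each of the 8 genes in each of the 4 libraries, as log2(FPKM + 1); each bar is 1 library and there are no replicates, so no error is drawn. CCL3, CCL4, EBI3 and IL4I1 have bars in all 4 libraries, CCL17 and CCL22 in Mino alone, and IL10 reaches 2.73 FPKM in the Z138 control library.

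CCL3 and CCL4 were lower in the hairpin library of both lines. CCL3, a macrophage inflammatory protein, was at 85.0 FPKM in the Mino hairpin library and 129.8 in the Mino control library. In Z138 it was at 19.0 FPKM in the hairpin and 60.4 in the control library. The hairpin libraries thus held 65.5% of the control level in Mino and 31.4% in Z138, differences of −0.60 and −1.62 in log2(FPKM + 1). CCL4, the other macrophage inflammatory protein of the pair, was at 51.8 FPKM in the Mino hairpin and 82.1 in the Mino control library, and at 2.45 FPKM in the Z138 hairpin and 7.49 in the Z138 control library. Its hairpin level was 63.1% of control in Mino and 32.8% in Z138, differences of −0.65 and −1.30. For both chemokines the Z138 hairpin library had the lowest value of the 4 and the Mino control library the highest. Whether the response differs between the lines could not be tested, with 1 pair of libraries per line. In such bulk libraries, fewer cells that express a gene and less of its RNA per cell cannot be told apart.

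The proportion of CCL3 to CCL4 was nearly the same in the hairpin and control libraries of a line and was several times higher in Z138 than in Mino. The CCL3 level was 1.64 times that of CCL4 in the Mino hairpin library and 1.58 times in the Mino control library. In Z138 it was 7.74 times in the hairpin and 8.06 times in the control library. FPKM values are per length, which allows levels of 2 genes to be set against each other, although shared reads with the copies could alter both. The level of IL4I1 relative to CCL3 was 1.17 and 1.46 in the Mino hairpin and control libraries, against 0.284 and 0.127 in those of Z138.

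**Figure D2:**
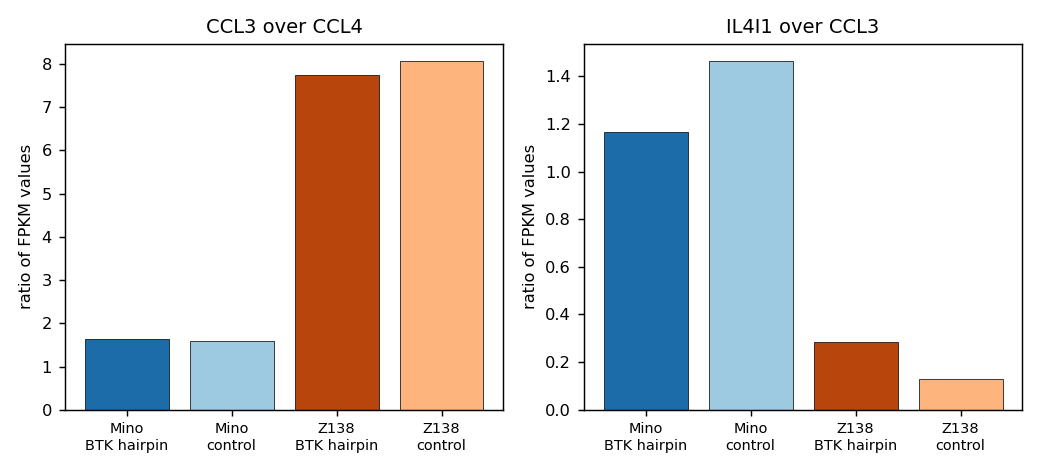
Ratio of the FPKM values of CCL3 to CCL4 (left) and of IL4I1 to CCL3 (right) in each library, 1 library per bar and no error. The CCL3 to CCL4 ratio is 1.64 and 1.58 in the Mino hairpin and control libraries, and 7.74 and 8.06 in those of Z138.

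IL4I1, EBI3 and CCL22 were lower in the Mino hairpin library by more than CCL3. IL4I1 was at 99.0 FPKM in the Mino hairpin and 189.7 in the Mino control library (52.2% of control, difference −0.93 in log2(FPKM + 1)). In Z138 it was at 5.39 FPKM in the hairpin and 7.67 in the control library (70.2%, difference −0.44). In each line the hairpin library had the lower IL4I1 value. CCL22 was at 5.96 FPKM in the Mino hairpin and 13.6 in the Mino control library (43.8%, difference −1.07), and was listed at 0 in both Z138 libraries. EBI3 was at 22.9 FPKM in the Mino hairpin and 38.5 in the Mino control library (59.6%, difference −0.72). In Z138 it was near the bottom of the scale, at 0.378 FPKM in the hairpin and 0.172 in the control library, the one pair of the 8 genes in which the hairpin value was the higher.

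The other 3 genes had low levels. CCL17, which shares the receptor CCR4 with CCL22 and is likewise encoded on chromosome 16, was at 1.10 FPKM in the Mino hairpin and 1.76 in the Mino control library and listed at 0 in both Z138 libraries. CXCL10, a chemokine induced by interferon, was at 0.165 FPKM in the Mino hairpin and 0.411 in the Mino control library, listed at 0 in the Z138 hairpin and at 0.0210 in the Z138 control library. IL10 had the opposite distribution between lines. It was listed at 0 in the Mino hairpin and at 0.0265 FPKM in the Mino control library, against 0.747 in the Z138 hairpin and 2.73 in the Z138 control library. The Z138 hairpin library held 27.4% of the Z138 control level of IL10. With so few fragments and unknown depth, these low values carry a counting error that cannot be given.

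Taken line by line, 7 genes were above 0 in both Mino libraries and all 7 were lower with the hairpin. In Z138, 5 were above 0 in both libraries and 4 of these were lower with the hairpin. The share of all genes lower with the hairpin at any size was not counted, and some of these values were near 0. At 1.5-fold or more on the log2(FPKM + 1) scale, the 5 genes that averaged at least 1 FPKM were all lower in Mino, where 1.24% of 11484 genes were, and none was higher, as 0.923% of genes were. In Z138, CCL3 and CCL4 were lower by that much, where 0.819% of all genes were, and none was higher, as 0.94% of genes were. In both lines CCL3 and CCL4 were lower by 1.5-fold, beside 0.0958% of all genes (11 in number), and none was higher, beside 0.183%. Since the genes were chosen with this contrast known, nothing is read from these counts. The median difference over the 5 genes was −0.72 in Mino and −0.44 in Z138 (CCL22, listed at 0 in both Z138 libraries, counted as no difference), where the medians over all 11484 genes were −0.01 and 0.03. In Mino the central 95% of all genes lay between −0.45 and 0.40, and in Z138 between −0.39 and 0.40. Ranked from the lowest difference of all genes, CCL22 stood at place 27 in Mino, IL4I1 at 41, EBI3 at 77, CCL4 at 100 and CCL3 at 125. In Z138, CCL3 stood at place 33, CCL4 at 36, IL4I1 at 197 and EBI3 at 9947. CCL3 in Mino lay just past 1.5-fold, and with libraries rescaled without ribosomal protein genes its difference was −0.56, short of it.

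**Figure D3:**
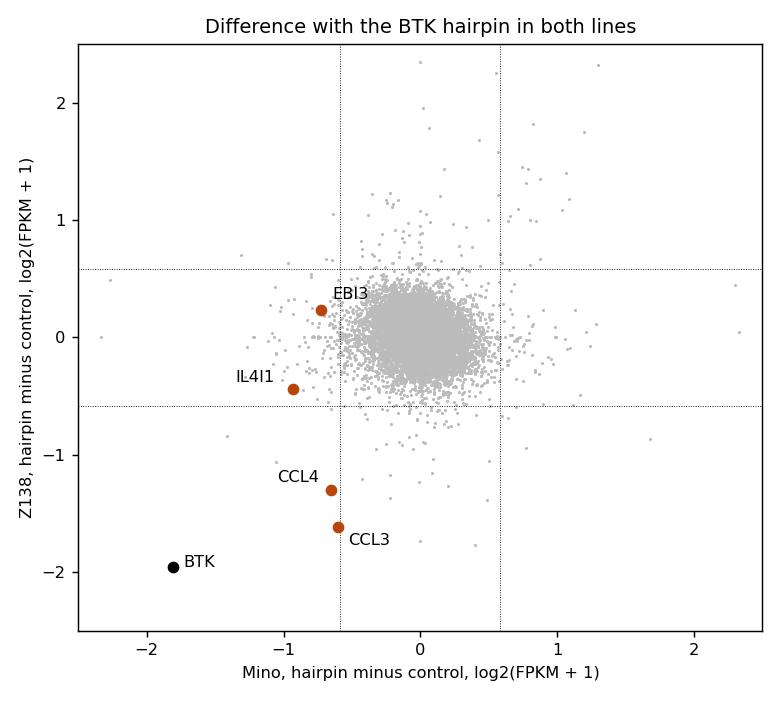
Difference between hairpin and control in Mino (horizontal) and Z138 (vertical), both in log2(FPKM + 1), for the genes tested (mean of 1 FPKM or more); 62 genes lie outside the axes and CCL22, listed at 0 in Z138, is not marked. Dotted lines mark 1.5-fold; CCL3 and CCL4 lie past it in both lines, IL4I1 and EBI3 in Mino alone.

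Mino was then set against Z138, which is not the contrast by which the genes were proposed, although earlier results of these data were known. The linear model of limma with line and hairpin as additive terms was used, so the 2 libraries of a line, which carry different vectors, stand in for replicates. Its error is the difference in hairpin response between the lines, moderated by limma toward a trend over all genes tested, and not the spread between cultures. The SEs and p-values thus rest in part on other genes and need not match a gene's own difference in response. P-values were adjusted by the Benjamini-Hochberg method over 11484 genes. All 5 genes that entered the test were higher in Mino (adjusted p under the threshold of 0.05), where 38.8% of all genes were higher in Mino and 28.7% lower. CCL22 and EBI3 were below 1 FPKM in both Z138 libraries and entered through their Mino values alone, which fixed their direction in advance. IL10, which was higher in Z138, averaged under 1 FPKM and did not enter. The count of 5 is therefore not a test of the set. The difference in log2(FPKM + 1) was 4.21 for IL4I1 (SE 0.15, adjusted p = 2.85e-07 in limma) and 3.61 for CCL4 (SE 0.17, adjusted p = 1.11e-06). It was 1.60 for CCL3 (SE 0.22, adjusted p = 0.000288 in limma) and 4.59 for EBI3, which is given no p-value because the filter fixed its direction. Both Mino libraries exceeded both Z138 libraries for each of these 4 genes, but the share of all genes that did so was not counted, so nothing is read from it. In FPKM, IL4I1 was 18.4-fold higher in Mino between the hairpin libraries and 24.7-fold between the control libraries. CCL4 was 21.1-fold higher between the hairpin and 11.0-fold between the control libraries, and CCL3 4.48-fold and 2.15-fold. EBI3 was 60.6-fold higher between the hairpin and 223-fold between the control libraries, against very low Z138 values. CCL22, the remaining gene, is given no fold because both Z138 values were listed at 0. Without the Z138 control library, the hairpin libraries alone gave differences of 2.11 for CCL3, 3.93 for CCL4, 3.97 for IL4I1 and 4.12 for EBI3 in log2(FPKM + 1), with no test. The control libraries alone gave 1.09 for CCL3, 3.29 for CCL4, 4.46 for IL4I1 and 5.07 for EBI3.

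Receptor genes were present for IL10 and for the cytokine of EBI3 and IL27, and were at or near 0 for the chemokines. Of 12 receptor genes, 4 reached a mean of 1 FPKM and 3 were listed at 0 in all 4 libraries. IL10RA, the ligand-binding IL10 receptor chain, was at 16.3 FPKM in the Mino hairpin and 24.1 in the Mino control library, and at 1.72 in the Z138 hairpin and 1.68 in the Z138 control library. It was higher in Mino by 2.95 (SE 0.17, adjusted p = 2.59e-06 in limma), the opposite of the distribution of IL10 itself. IL10RB, the shared second chain, was at 21.0 and 20.6 FPKM in the Mino hairpin and control libraries and at 15.6 and 15.7 FPKM in those of Z138. IL27RA, which binds the cytokine of EBI3 and IL27, was at 12.0 and 11.6 FPKM in the Mino hairpin and control libraries and at 26.4 and 25.2 in those of Z138. IL6ST, its signalling partner, lay between 3.47 and 4.68 FPKM in all 4. None of the 4 differed 1.5-fold between hairpin and control in either line. The chemokine receptor CCR1 was listed at 0 in Mino and was at 0.277 and 0.343 FPKM in the Z138 hairpin and control libraries, and CXCR3 did not exceed 0.143 FPKM. IL12RB2, also on the receptor list, did not exceed 0.0132 FPKM.

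The partner subunits of EBI3 were scarce. IL27 was listed at 0 in all 4 libraries. IL12A was at 0.620 FPKM in the Mino hairpin and 1.21 in the Mino control library, and at 0.0818 FPKM in the Z138 hairpin and 0.0540 in the Z138 control library. EBI3 was thus 37.0 and 31.8 times the IL12A level in the Mino hairpin and control libraries. IL23A, the related subunit that pairs with IL12B, was the one gene of this list of 4 to average 1 FPKM. It was at 9.69 FPKM in the Mino hairpin and 14.6 in the Mino control library, and at 46.0 FPKM in the Z138 hairpin and 54.3 in the Z138 control library, differences of −0.54 and −0.23 in log2(FPKM + 1). Between lines it was lower in Mino, with a difference of −1.98 (SE 0.14, adjusted p = 6.70e-06 in limma).

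Other chemokines were few. Of 27 in the table, 15 were listed at 0 in all 4 libraries and 2 reached a mean of 1 FPKM, neither differing 1.5-fold with the hairpin in either line. CXCL16, a membrane-bound chemokine, was at 8.32 FPKM in the Mino hairpin and 10.6 in the Mino control library, and at 0.655 FPKM in the Z138 hairpin and 1.04 in the Z138 control library. CCL5, a T cell attractant, was at 2.73 and 2.09 FPKM in the Mino hairpin and control libraries and at 4.20 and 5.65 FPKM in those of Z138. Of 20 other lymphocyte cytokines, 5 reached that mean and 8 were listed at 0 in all 4 libraries, and none of the 5 differed 1.5-fold with the hairpin. TGFB1 had the highest mean of them, at 93.2 and 99.2 FPKM in the Mino hairpin and control libraries and 34.7 and 34.2 FPKM in those of Z138. VEGFA was at 13.5 and 19.1 FPKM in the Mino hairpin and control libraries and at 23.6 and 23.8 in those of Z138, and IL16 lay between 7.09 and 8.64 FPKM. The zeros of TNF, LTA and LTB cannot be read as absence, because these genes lie in the MHC region of chromosome 6, where 126 of 147 coding symbols were listed at 0 in all 4 libraries, against 3513 of 18180 coding symbols elsewhere. Among 8 enzymes set beside IL4I1, mostly of amino acid breakdown, 3 reached the mean of 1 FPKM and none differed 1.5-fold with the hairpin. LAP3, an aminopeptidase, was at 12.6 FPKM in both Mino libraries and at 35.2 and 33.0 FPKM in the Z138 hairpin and control libraries. ARG2, a mitochondrial arginase, lay between 5.28 and 6.21 FPKM. KYNU, of the kynurenine pathway, was at 7.08 and 7.65 FPKM in the Mino hairpin and control libraries and at 0.184 and 0.285 in those of Z138.

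Of 22 known regulators of such genes, 21 reached a mean of 1 FPKM. In Mino 3 of these were at least 1.5-fold lower with the hairpin, beside 1.24% of all genes, and none higher, beside 0.923%. In Z138 none passed in either direction, beside 0.819% of all genes lower and 0.94% higher. The counts are therefore not read as a difference between the lines. The median difference of the 21 regulators was −0.18 in Mino and 0.01 in Z138. The 3 are named after their values were seen: the AP-1 subunits JUN and FOS and the repressor PRDM1. JUN was at 8.40 FPKM in the Mino hairpin and 16.9 in the Mino control library, and at 0.586 and 0.384 FPKM in the Z138 hairpin and control libraries. FOS was at 2.29 and 4.36 FPKM in the Mino hairpin and control libraries and at 2.24 and 3.09 FPKM in those of Z138. PRDM1 was at 3.95 and 6.64 FPKM in the Mino hairpin and control libraries and at 7.66 and 7.16 FPKM in those of Z138. The 3 regulators with the highest means were IRF4, NFKBIA and NFKB2. IRF4 lay between 114 and 135 FPKM in all 4 libraries. NFKBIA, the inhibitor that NF-kB itself induces, was at 129 and 146 FPKM in the Mino hairpin and control libraries and at 77.6 and 79.0 FPKM in those of Z138. NFKB2 was at 60.8 and 63.1 FPKM in the Mino hairpin and control libraries and at 90.5 and 95.0 in those of Z138. Between lines, 12 of the 21 regulators were higher in Mino and 3 lower in limma, beside the 38.8% and 28.7% of all genes. Among the 12, JUN and BCL6 were below 1 FPKM in both Z138 libraries (BCL6 at 0.541 and 0.567 FPKM in hairpin and control). These genes entered through their Mino values alone, which fixed their direction in advance, so the count is not a test of the list.

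**Figure D4:**
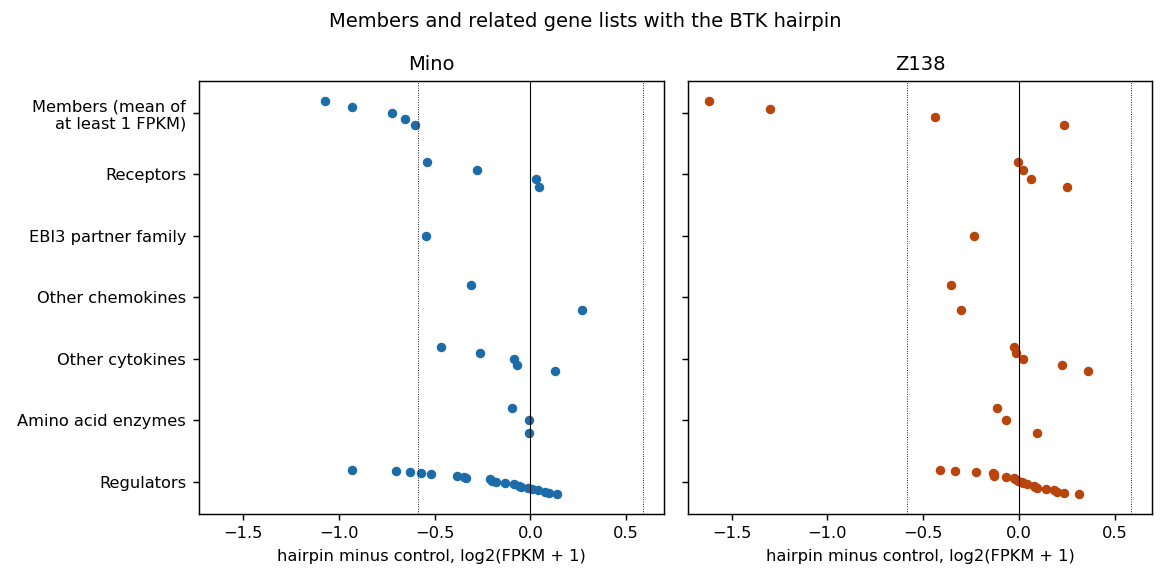
Difference between hairpin and control in log2(FPKM + 1) for the secreted-factor genes and each related list in Mino (left) and Z138 (right); each point is 1 gene that averaged 1 FPKM or more, dotted lines mark 1.5-fold, and CCL22 has no Z138 point. In Mino the 5 secreted-factor genes and 3 regulators lie past the lower line, and in Z138 CCL3 and CCL4 alone.

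Finally, the genes closest in pattern over the 4 libraries were listed for CCL3 and CCL4, by the root mean square difference of log2(FPKM + 1) values centred on each gene's own mean, within the 8167 genes that averaged 5 FPKM or more. Nearest to CCL3 was NR4A1, an early response nuclear receptor, at a distance of 0.18. NR4A1 was at 18.9 FPKM in the Mino hairpin and 25.7 in the Mino control library, and at 4.62 FPKM in the Z138 hairpin and 12.0 in the Z138 control library. SCARNA17, NUDT14, SH2D2A and MESP1 followed at 0.30 to 0.33, and these 4 differed from CCL3 in having differences between −0.09 and 0.09 in Mino. Among the 5 genes nearest to CCL4 were NEK6, ENO2, SEMA7A and SLC15A3, at 0.35 to 0.38. CCL3 and CCL4 were 1.01 apart on this measure, which also reads their unequal levels in the 2 lines.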

How the data were processed

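RNA sequencing of 4 cell line cultures was analysed. Per the labels' protocols, RNA came from a Qiagen column kit and sequencing libraries from Illumina's TruSeq RNA kit. The authors deposited 1 table of FPKM values with 1 column per library, per the file headers; TopHat and hg19 are named in the submitters' processing notes, and no source names the FPKM program or its annotation. Each column was matched to its library by line and vector. Low values showed no common step (at most 6.10% of low genes shared a ratio between libraries), so whole reads were not recovered and no counting interval is given.

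Values were analysed as log2(FPKM + 1), which understates differences of low genes. The 11484 genes averaging 1 FPKM or more entered limma 3.58.1 in R 4.3.3, with line and hairpin as terms, a mean-variance trend and 1 residual degree of freedom. The code was tried on data simulated with independent errors, variances drawn from the model's own fit and no hairpin effect. That run checks the code and lends no support to the p-values. Hairpin and control were compared by size alone (1.5-fold). Exact zeros can be failed estimates (TUBB was listed at 0 in all 4 libraries), so no fold was taken against them. With 1 library per group, the error behind the p-values is the moderated difference in hairpin response between the lines and holds nothing of biological replication.

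The members, the 6 related lists and the tests were chosen with earlier results of these data known. Named genes were the 8 members, BTK, the copies of CCL3 and CCL4, the 5 nearest patterns, receptors and partners at a mean of at least 1 FPKM, and the 3 highest genes of every other list (2 where only 2 qualified). Genes that missed the rule (IL12A, IL27, CCR1, CXCR3, IL12RB2, TNF, LTA, LTB, JUN, FOS, PRDM1, BCL6, CNBP, EEF1A1 and TUBB) were named after their values were seen. Promoters came from RefSeq (GRCh38.p14) and transcripts from GENCODE release 29; no coordinates of the authors' build were used. Some items are not reported here.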

Additional observations from a re-analysis of the deposited data

Results flagged for a closer look

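Of the genes named, 3 had differences of at least 0.2 in log2(FPKM + 1) that ran in opposite directions in the 2 lines, a size chosen after the values were seen. Each line had 1 pair of libraries, so this contrast of responses was not tested. For EBI3 the difference between hairpin and control was −0.72 in Mino and 0.23 in Z138, where its level was under 0.4 FPKM. For CCL5 it was 0.27 in Mino and −0.35 in Z138. For the receptor gene IL6ST it was −0.28 in Mino and 0.25 in Z138.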

How the results depend on the processing

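Of 57 alternative values of the members' differences between hairpin and control, 53 stayed on the same side of 1.5-fold with the same direction. Exceptions were CCL3 in Mino without ribosomal protein genes in the scaling (−0.56) and, at a pseudocount of 0.1, CCL17 (−0.64) and CXCL10 (−0.95) in Mino and EBI3 in Z138 (0.81), the last of which brought the members at least 1.5-fold higher in Z138 to 1. At a threshold of 2-fold, 1 member (CCL22) was lower in Mino and 0 were lower in both lines, and without ribosomal protein genes in the scaling 1 (CCL4) was lower in both. After GC and length correction, CCL3 differed by −0.59 in Mino and −1.61 in Z138 and CCL4 by −0.65 and −1.31. The line differences of CCL3, CCL4 and IL4I1 kept their direction and passed under all 7 alternatives of the fit, with adjusted p in limma at most 0.0258, for CCL3. That of EBI3, whose direction the filter fixed, also kept it. Over all alternatives the differences ranged from 1.09 to 2.11 for CCL3, 3.29 to 3.93 for CCL4, 4.12 to 6.37 for EBI3 and 3.97 to 4.46 for IL4I1. The number of genes called between lines (7745) stayed within 1.5 times. No paired analysis was possible because each group had 1 library and the labels give no replicate numbers.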
